A study of Mus musculus with 2 samples.

Results

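The genes described here are 10 ligands and receptors of the tumour necrosis factor (TNF) superfamily in TEa T cells, picked by gene name from the deposited table of read counts. They are the ligand genes Tnfsf8, Tnfsf10, Tnfsf11, Tnfsf14 and Cd40lg and the receptor genes Tnfrsf4, Tnfrsf9, Tnfrsf18, Cd27 and Fas, 10 of 35275 genes in the table. TEa cells are CD4 T cells of C57BL/6 background with a transgenic receptor for a peptide of the class II chain I-E alpha of BALB/c mice. In the library titled effector they had been transferred into wild-type C57BL/6 recipients that carried a BALB/c skin transplant. In the library titled exhausted (Exhaust in the labels) they had been transferred into CB6F1 recipients, hybrids of BALB/c and C57BL/6 that carry the antigen throughout, with no graft named. Recipient strain, graft and amount of antigen differ together and cannot be told apart. The labels give no age of the animals, no time after transfer and no statement of how many animals were pooled. Both libraries came from sorted splenocytes, 1 library per group, and held 7844445 counts (effector) and 8508129 counts (exhausted). Every fold below therefore compares these 2 libraries without a replicate check, and every 95% interval covers counting error only.

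TNF superfamily ligands are mostly membrane proteins that act as trimers and bring together receptors on the partner cell. The receptors fall into costimulatory ones, which recruit TRAF adaptors and activate NF-kB, and death receptors such as Fas, which recruit FADD and caspase-8. On CD4 T cells the ligands deliver help to B cells and dendritic cells, whereas the receptors OX40, CD137, GITR and CD27 sustain the T cell's own division and survival. In whole sorted populations, fewer cells expressing a gene and less RNA per cell cannot be told apart.

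All 10 genes were measured, which here means at least 50 reads over both libraries, and within these 10 the calls split by role. Of the 5 ligand genes, 4 were higher in exhausted cells and 1 was neither, whereas among the 5 receptor genes 1 was higher, 1 lower and 3 neither. A gene was called higher or lower when the ratio of scaled counts was at least 2-fold and its counting interval excluded equality. By the same rule 6.65% of the 9999 measured genes were higher and 7.07% lower, or 13.7% in all, against 5 higher and 1 lower of the 10 members. The median log2 ratio of exhausted to effector was 1.53 for the ligands and -0.78 for the receptors, and -0.002 over all measured genes. Scaling by the summed reads of Cd3e, Cd3d and Cd3g instead lowered the median of all genes to -0.45. The members then split into 3 higher (Tnfsf8, Tnfsf14 and Tnfsf10) and 3 lower (Fas, Cd27 and Tnfrsf18), against 3.59% higher and 14.7% lower of all measured genes. No p-value was computed, since the design has 1 library per group, and the members were named with earlier results of these data known.

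The stretches before the transcription starts of the 4 ligand genes that were higher together, and of Fas, the called gene that was lower, are shown so that the letters can be read beside the counts. They come from RefSeq on build GRCm38.p6, read 5′ to 3′ on the gene's own strand, and stop where the deposited gene model begins. Tnfsf8 is on the minus strand (chr4:63861348-63861534), Tnfsf14 on the minus strand (chr17:57194190-57194431) and Tnfsf11 on the minus strand (chr14:78308044-78308293). Tnfsf10 is on the plus strand (chr3:27316827-27317027), as is Fas (chr19:34290409-34290658). Capitals mark matches, on either strand, to GGAAA, the core bound by NFAT factors, or to TGANTCA, the site form of AP-1.
Tnfsf8: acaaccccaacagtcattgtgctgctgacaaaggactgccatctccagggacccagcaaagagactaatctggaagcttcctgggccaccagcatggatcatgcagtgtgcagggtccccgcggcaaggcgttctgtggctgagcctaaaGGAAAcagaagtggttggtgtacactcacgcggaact
Tnfsf14: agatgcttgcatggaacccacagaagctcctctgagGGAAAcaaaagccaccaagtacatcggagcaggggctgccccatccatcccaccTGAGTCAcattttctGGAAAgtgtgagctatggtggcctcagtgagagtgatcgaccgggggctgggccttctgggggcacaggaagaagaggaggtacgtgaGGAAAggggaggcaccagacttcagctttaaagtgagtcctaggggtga
Tnfsf11: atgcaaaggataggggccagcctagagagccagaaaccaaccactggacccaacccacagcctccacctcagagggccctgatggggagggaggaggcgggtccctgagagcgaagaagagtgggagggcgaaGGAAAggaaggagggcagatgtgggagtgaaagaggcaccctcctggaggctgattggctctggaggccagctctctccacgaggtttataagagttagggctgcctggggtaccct
Tnfsf10: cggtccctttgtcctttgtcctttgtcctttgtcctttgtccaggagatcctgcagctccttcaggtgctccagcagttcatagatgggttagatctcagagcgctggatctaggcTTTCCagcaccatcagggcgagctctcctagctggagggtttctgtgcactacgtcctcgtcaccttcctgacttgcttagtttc
Fas: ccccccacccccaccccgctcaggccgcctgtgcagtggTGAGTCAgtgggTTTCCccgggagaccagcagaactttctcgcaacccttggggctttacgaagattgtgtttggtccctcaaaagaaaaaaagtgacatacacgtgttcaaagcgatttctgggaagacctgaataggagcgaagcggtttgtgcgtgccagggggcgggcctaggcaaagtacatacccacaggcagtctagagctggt

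Of the 10 members 9 had a RefSeq entry, and Cd40lg had none. The counts for these 9 are per gene, with Tnfrsf9 counted if any of its RefSeq starts held a match. The shares over all mouse promoters are per promoter. GGAAA occurred in the 250 bases before the start in 9 of these 9, a short motif that 55.6% of 32851 mouse promoters of that length also held. TGANTCA occurred in 3 of 9, against 6.75% of all promoters, namely in Tnfsf14 (TGAGTCA, beginning 160 bases before the start), in Fas (beginning 211 bases before) and at the downstream one of the RefSeq starts of Tnfrsf9, whose starts lie inside the deposited gene model. The AP-1 form was thus present both in a ligand gene that was higher and in the receptor gene that was lower. Tnfsf14 also held 3 copies of GGAAA, while Tnfsf8, Tnfsf10, Tnfsf11 and Fas held 1 each. Neither the NF-kB site form searched (1.21% of promoters), nor AGGTGTGA, a T-box half-site (1.12%), was found in any of the 9. No match overlapped another in the stretches shown.

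Tnfsf8 had the largest difference among the ligand members. It encodes the ligand of CD30 (ENSMUSG00000028362, mm10 chromosome 4, 63831308 to 63861347, minus strand). It had 692 reads in effector cells and 4957 in exhausted cells, 6.62-fold more (6.11 to 7.18), which ranked 129 from the top of 9999 measured genes by log2 ratio. Its RPKM, the reads per kilobase of gene length scaled to library size, was 23.1 (95% interval 21.4 to 24.9) in effector cells and 153 (149 to 158) in exhausted cells. Among all genes of the table that level ranked 3685 in effector cells and 435 in exhausted cells. Tnfrsf8, the gene of CD30 itself, had 5 and 21 reads, below the read minimum.

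Tnfsf14 encodes LIGHT, a ligand of the herpesvirus entry mediator and of the lymphotoxin beta receptor (ENSMUSG00000005824, chromosome 17, 57189492 to 57194189). Its reads numbered 102 in the effector and 491 in exhausted cells, 4.45-fold more (3.59 to 5.56). Of its receptors, Tnfrsf14 had 46 against 99 reads, which at 1.99-fold (1.39 to 2.89) lay just under the 2-fold line, and Ltbr had 3 reads in each library. Tnfsf14 and Tnfrsf14 thus were both at larger counts in exhausted cells, with only the ligand past the rule.

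Tnfsf10, the gene of the death ligand TRAIL (ENSMUSG00000039304, chromosome 3, 27317028 to 27342427), had 120 against 374 reads, 2.88-fold more in exhausted cells (2.34 to 3.57). It remained the ligand member with the lowest level per length there, at 8.82 RPKM (7.95 to 9.76). Tnfsf11, the gene of RANKL (ENSMUSG00000022015, chromosome 14, 78277445 to 78308043), which drives osteoclast formation and lymph node development, had 332 against 837 reads, 2.33-fold more (2.05 to 2.65). The receptor of RANKL, Tnfrsf11a, had 0 and 1 read, and its soluble decoy gene Tnfrsf11b had 0 in both. A count of 0 does not show absence, and for ratios it is set to a floor of 3 reads. In the main scaling the intervals of Tnfsf8, Tnfsf14, Tnfsf10 and Tnfsf11 all lay wholly above 2-fold. When scaled by the Cd3 genes, those of Tnfsf8 and Tnfsf14 still did. That of Tnfsf10 then spanned 2-fold (log2 ratio 1.08, 0.78 to 1.39), and that of Tnfsf11 lay below it (0.77, 0.59 to 0.96).

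Cd40lg, the gene of the helper ligand that T cells present to B cells and dendritic cells (ENSMUSG00000031132, chromosome X, 57212143 to 57224042), was the ligand member that was not called. It had 1236 against 1795 reads, 1.34-fold more in exhausted cells (1.25 to 1.45), and when scaled by the Cd3 genes its log2 ratio turned from 0.425 to -0.025. Its level per length of 126 and 169 RPKM was the highest of the ligand members in both libraries. Tnfsf8, far below it in effector cells, came close to it in exhausted cells.

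**Figure D1:**
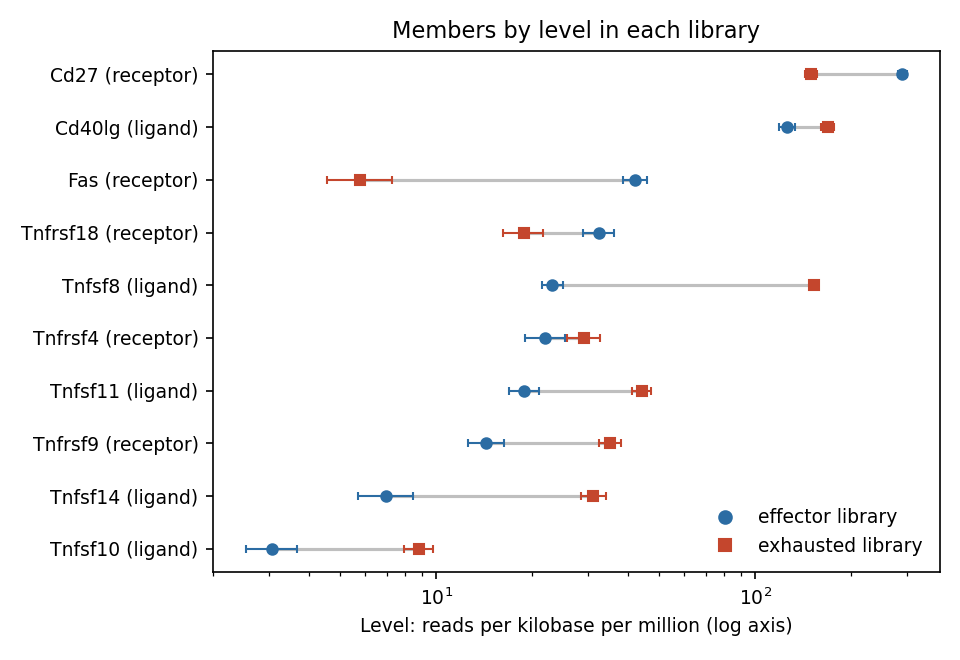
Level of each member in RPKM, reads per kilobase of gene length scaled to library size (horizontal log axis) in effector cells (circles) and the exhausted library (squares), with exact Poisson 95% intervals of the counts, ordered by the effector level. Tnfsf8 moves from 23.1 to 153 and Fas from 42.1 to 5.78, while Cd40lg (126 and 169) and Tnfrsf4 (21.96 and 29.0) each differ little between the libraries.

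Fas was the receptor member with the largest difference, and the direction was opposite to that of the ligands. It encodes the death receptor CD95 (ENSMUSG00000024778, chromosome 19, 34290659 to 34327770, plus strand). Its 491 reads in effector cells stood against 73 in exhausted cells, 7.28-fold fewer (5.68 to 9.44), which ranked 123 from the bottom of 9999 genes. By level per length it was the third member in effector cells, at 42.1 RPKM (38.4 to 46.0), and the lowest of the 10 in exhausted cells, at 5.78 (4.53 to 7.27). Fasl, the gene of its ligand, was lower as well, with 253 against 14 reads (19.5-fold, 11.4 to 36.3).

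Tnfrsf9 encodes CD137, also called 4-1BB, a costimulatory receptor induced by antigen (ENSMUSG00000028965, chromosome 4, 150914562 to 150946102). It was the receptor member that was higher, with 238 against 632 reads (2.45-fold, 2.11 to 2.86). The gene of its ligand, Tnfsf9, had 17 against 245 reads and was 13.3-fold higher (8.15 to 23.2), the largest ratio upwards in the family. Tnfsf9 shares exon sequence with Gm11110 on the other strand, which had 63 and 96 reads, and no source used here says whether reads were counted by strand. Receptor and ligand of this pair were thus both past the rule in the same direction, as were Fas and Fasl. When scaled by the Cd3 genes, Tnfrsf9 dropped under 2-fold (log2 ratio 0.85). The log2 ratios of Tnfsf9, Fas and Fasl were then 3.29, -3.31 and -4.74.

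Cd27 encodes a receptor of naive and memory T cells (ENSMUSG00000030336, chromosome 6, 125232622 to 125237010). It had 3539 against 1978 reads and fell just short of the rule at 1.94-fold fewer in exhausted cells (1.83 to 2.05). Its level per length was the highest of all members in effector cells, at 289 RPKM (279.6 to 299), and the third in exhausted cells, at 149 (143 to 156). The gene of its ligand, Cd70, had 0 reads in both libraries.

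Tnfrsf4 and Tnfrsf18 encode OX40 and GITR, costimulatory receptors found on activated and regulatory T cells, and lie 9.55 kb apart on chromosome 4 with no table gene between them. Tnfrsf4 (ENSMUSG00000029075, 156013843 to 156016612) had 188 against 269 reads, 1.32-fold more (1.09 to 1.60), a direction that turned when scaled by the Cd3 genes (log2 ratio 0.40 and -0.05). Tnfrsf18 (ENSMUSG00000041954, 156026164 to 156028895) had 302 against 190 reads, 1.72-fold fewer (1.43 to 2.07). It shares 414 bases of exon sequence with Gm16008 on the other strand, which had 5 and 8 reads. Although neither gene reached 2-fold, the share of Tnfrsf4 in their joint reads was 38.4% (188 of 490, exact interval 34.0 to 42.8%) in effector cells and 58.6% (269 of 459, 53.9 to 63.2%) in exhausted cells. Such a share needs no scaling between libraries. Of the ligands of these receptors, Tnfsf4 had 18 against 4 reads and Tnfsf18 had 0 in both.

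Regulatory T cell markers were checked beside these receptors. Of 5 measured markers 3 were lower, among them Foxp3 (44 against 12 reads, 3.97-fold) and Il2ra (57 against 3), 1 was higher (Ikzf2, 173 against 459, 2.45-fold) and Gpr83 (146 against 295) was neither. The summed level of the 6 listed markers was 60.5 CPM, which are counts scaled to library size, in the effector and 91.7 in exhausted cells, mostly from Ikzf2 and Gpr83. The part of regulatory cells in the values of Tnfrsf4, Tnfrsf9 and Tnfrsf18 was not tested.

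Shares of reads within a library restate the split among the members from the same counts, without any scaling. The 5 ligand members took 34.3% of the reads of the 10 members in effector cells (2482 of 7240, 33.2 to 35.4%) and 72.9% in exhausted cells (8454 of 11596, 72.1 to 73.7%). Without Tnfsf8, which gave 692 of these ligand reads in effector and 4957 in exhausted cells, the share was 27.3% (26.3 to 28.4%) and 52.7% (51.5 to 53.9%). Most receptor reads came from Cd27, with 3539 of 4758 in effector and 1978 of 3142 in exhausted cells. Without Cd27 the receptor members had 1219 against 1164 reads, 1.13-fold fewer in exhausted cells (1.04 to 1.23). Their median log2 ratio was then -0.19, with 2 genes above 0 and 2 below. Tnfsf8 took 35.9% of its joint reads with Cd40lg in effector cells (33.7 to 38.1%) and 73.4% in exhausted cells (72.3 to 74.5%). Tnfrsf9 took 6.30% of its joint reads with Cd27 (5.55 to 7.12%) and 24.2% (22.6 to 25.9%), and Fas took 12.2% of its joint reads with Cd27 (11.2 to 13.2%) and 3.56% (2.80 to 4.45%). These shares compare reads, not molecules per gene, since the genes differ in length.

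**Figure D2:**
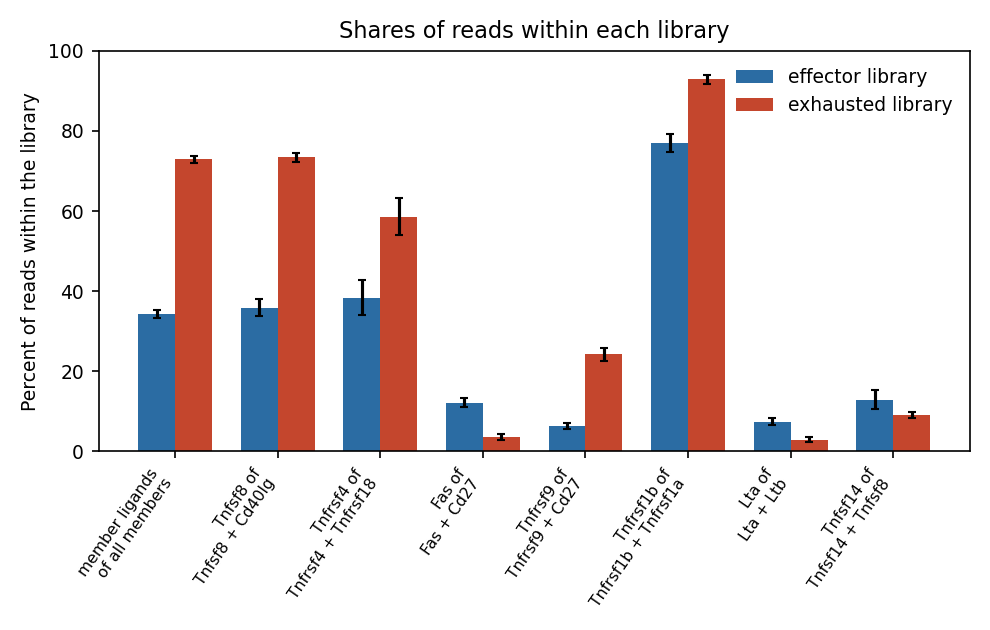
Percent of reads that the first named gene or group takes of the reads of the set named under it, in the effector (blue) and exhausted (red) library, with exact Clopper-Pearson 95% intervals. The member ligands take 34.3% of all member reads in the effector and 72.9% in exhausted cells, and Tnfrsf4 takes 38.4% and 58.6% of its reads with Tnfrsf18.

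The order of the members by level per length differed between the libraries. In the effector library it ran Cd27, Cd40lg, Fas, Tnfrsf18, Tnfsf8, Tnfrsf4, Tnfsf11, Tnfrsf9, Tnfsf14 and Tnfsf10, and only the intervals of Tnfsf8 with Tnfrsf4 and of Tnfrsf4 with Tnfsf11 overlapped between neighbours. In the exhausted library it ran Cd40lg, Tnfsf8, Cd27, Tnfsf11, Tnfrsf9, Tnfsf14, Tnfrsf4, Tnfrsf18, Tnfsf10 and Fas. There the neighbours Tnfsf8 with Cd27, Tnfrsf9 with Tnfsf14 and Tnfsf14 with Tnfrsf4 could not be separated. With the length of all GENCODE M21 exons in place of the table's gene length, a choice made after seeing the data, Tnfsf11 and Tnfrsf4 changed places in effector cells and Tnfrsf9 and Tnfsf14 in exhausted cells. Cd27 then came to 193.5 RPKM in effector cells and 99.9985 in exhausted cells. Tnfsf8 stayed at 153 in exhausted cells, so Tnfsf8 and Cd27 lay further apart there than with the table's gene length. The GENCODE length lowered the level of every receptor member in both libraries. Among the ligand members it lowered Tnfsf10 slightly (8.82 to 8.36 RPKM in exhausted cells), raised Tnfsf14 slightly and left the others unchanged.

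The split by role among the 10 members was not seen in the rest of the family. Of 36 other ligand and receptor genes 17 were measured, and the rule placed 4 of these above, 4 below and 9 in neither class. Their median log2 ratio was -0.30 and their mean -0.04. Another 11 had 0 reads in both libraries. By role, the 5 measured other ligands comprised 1 higher, 2 lower and 2 neither. Their median log2 ratio was -0.94, and the whole list summed to 4720 against 2785 reads (1.83-fold fewer, 1.75 to 1.92). Ltb alone gave 3947 and 2220 of these reads, so the sum mostly reflects that gene. The 12 measured other receptors comprised 3 higher, 2 lower and 7 neither, and their median was 0.06. Over the whole family the measured ligands had a median of 0.82 and the measured receptors -0.30, with means of 0.46 and -0.002.

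Among the other ligands, the lymphotoxin genes leaned the opposite way to the called member ligands. Lta, which encodes lymphotoxin alpha, was counted 316 and 67 times, 5.1-fold lower (3.91 to 6.74). Ltb, its membrane partner, had 3947 against 2220 reads, 1.92-fold fewer (1.82 to 2.03) and not past the rule. Tnf, which lies between them on chromosome 17 at 3.06 kb from Ltb and 1.16 kb from Lta, had 166 against 235 reads (1.31-fold more, 1.07 to 1.61). Ltb was the ligand gene with the most reads in effector cells, with 54.8% of those of all 18 ligand genes (53.6 to 56.0%) against 19.8% in exhausted cells (19.0 to 20.5%). Tnfsf8 took 9.61% (8.94 to 10.3%) and 44.1% (43.2 to 45.0%) of the same reads, and so was the ligand gene with the most reads in exhausted cells.

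Among the other receptors, Tnfrsf25, the gene of death receptor DR3, stood closest to Fas, with 444 against 69 reads (6.96-fold lower, 5.39 to 9.11). The ligand gene of DR3, Tnfsf15, had 2 and 0 reads. The TNF receptor genes differed in direction. Tnfrsf1a, which carries a death domain, was 2.07-fold lower (314 against 164 reads, 1.71 to 2.52), and Tnfrsf1b, which does not, had 1057 against 2130 reads (1.86-fold more, 1.73 to 2.01). Tnfrsf1b took 77.1% of their joint reads in effector cells (74.8 to 79.3%) and 92.9% in exhausted cells (91.7 to 93.9%).

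Tnfrsf19, the gene of TROY, was 6.53-fold higher (17 against 120 reads, 3.91 to 11.6) and Tnfrsf21, the gene of DR6, another receptor with a death domain, 6.01-fold higher (16 against 104, 3.53 to 10.9). The receptor genes with a death domain thus did not share a direction. Of the TRAIL receptors, Tnfrsf10b had 20 and 22 reads, while the mouse decoy receptor genes Tnfrsf22 and Tnfrsf23 had 322 against 463 reads (1.33-fold more, 1.15 to 1.54) and 26 against 73 reads (2.6-fold higher, 1.64 to 4.23). Their neighbour Tnfrsf26, 6.96 kb from Tnfrsf22, had 744 against 446 reads, 1.8-fold fewer (1.6 to 2.03).

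Relt, which had 578 against 509 reads, and Tnfrsf12a, the gene of the TWEAK receptor with 30 against 21, were not called. Tnfrsf13b, which encodes the BAFF and APRIL receptor TACI, a receptor mainly of B cells, had 697 against 539 reads (1.40-fold fewer, 1.25 to 1.57). The other B cell receptor genes of the family, Cd40 and Tnfrsf17, had 0 reads in both libraries, and Tnfrsf13c had 7 and 4. Among 9 B cell markers, Ms4a1 and Blk had 0 reads in both libraries, and the summed level of the list was 1040 CPM in the effector and 456 in exhausted cells. Nearly all of it was Ighm (7540 against 3851 reads), with Cd22 at 603 against 4.

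**Figure D3:**
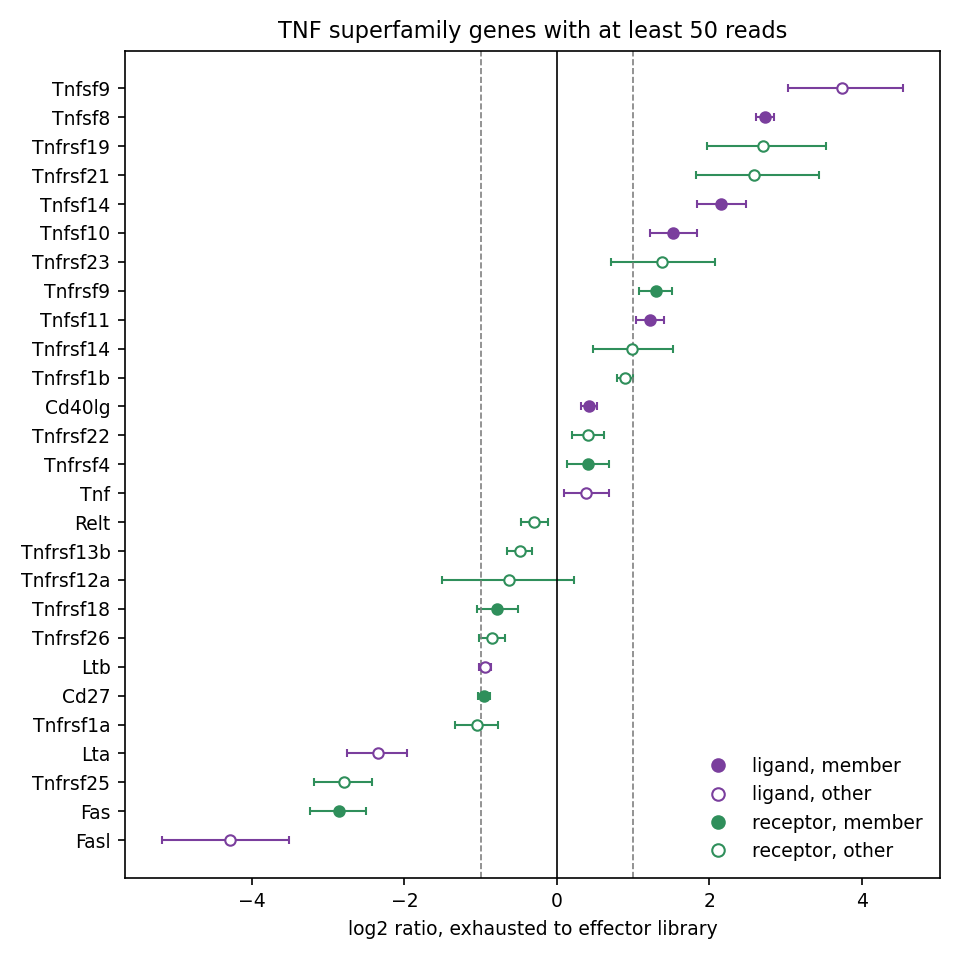
The log2 ratio of exhausted to effector (horizontal axis) for the 27 TNF superfamily genes with at least 50 reads, with exact 95% counting intervals, for ligands (purple) and receptors (green), filled for the 10 members and open for the others. Dashed lines mark 2-fold, and the genes run from Fasl at -4.29 to Tnfsf9 at 3.74.

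Family genes that lie next to each other did not all share a direction. On chromosome 17, Tnfsf9 and Tnfsf14, both higher in exhausted cells, flank Cd70, which had 0 reads and lies 38.2 kb from Tnfsf9 and 39.7 kb from Tnfsf14. Tnfsf8 lies 86.2 kb from Tnfsf15, which had 2 and 0 reads. Fasl lies 275.4 kb from Tnfsf18, which had 0 reads in both. Log2 ratios of neighbouring measured genes were of opposite sign for Ltb and Tnf, Tnf and Lta, Tnfrsf4 and Tnfrsf18, and Tnfrsf26 and Tnfrsf22. They were of the same sign for Tnfrsf22 and Tnfrsf23 (0.41 and 1.38). All of these relations reversed when scaled by the Cd3 genes, since Tnf, Tnfrsf4 and Tnfrsf22 (log2 ratios -0.06, -0.05 and -0.04) then fell below 0.

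The adaptor genes downstream of the receptors differed far less than the ligands and receptors. Of 36 genes of TRAF adaptors, death domain adaptors, ubiquitin enzymes and caspases, all were measured, 1 was higher, 1 was lower and 34 were neither. Both called genes sat at the 2-fold line. Tnip2, whose product restrains NF-kB together with the enzyme A20, had 276 against 602 reads (2.02-fold, 1.75 to 2.33), and Traf3ip3, which encodes a partner of TRAF3, had 3063 against 1647 (2.01-fold lower, 1.89 to 2.14). The list's median log2 ratio was -0.05, its range -1.01 to 1.01, and the shares called of 36 were below the 6.65% and 7.07% over all genes.

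None of the listed genes that link Fas to cell death was past the rule, whereas Fas and Fasl were. Fadd, the adaptor gene, had 69 against 77 reads (1.03-fold, 0.74 to 1.45), Casp8 had 2010 against 2184 (1.01-fold, 0.95 to 1.07) and Bid had 291 against 304. Cflar, whose product competes with caspase-8, had 995 against 1426 reads (1.33-fold more, 1.22 to 1.44, with a log2 ratio of -0.04 when scaled by the Cd3 genes). Genes of the TRAF adaptors used by the costimulatory receptors lay within 1.5-fold. Traf1 had 1549 against 1405 reads, Traf2 759 against 1004, Traf3 518 against 791 and Traf5 949 against 987. Among the feedback enzymes, Tnfaip3, the gene of A20, had 874 against 658 reads (1.44-fold fewer, 1.3 to 1.59), and Birc3 had 1001 against 828.

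**Figure D4:**
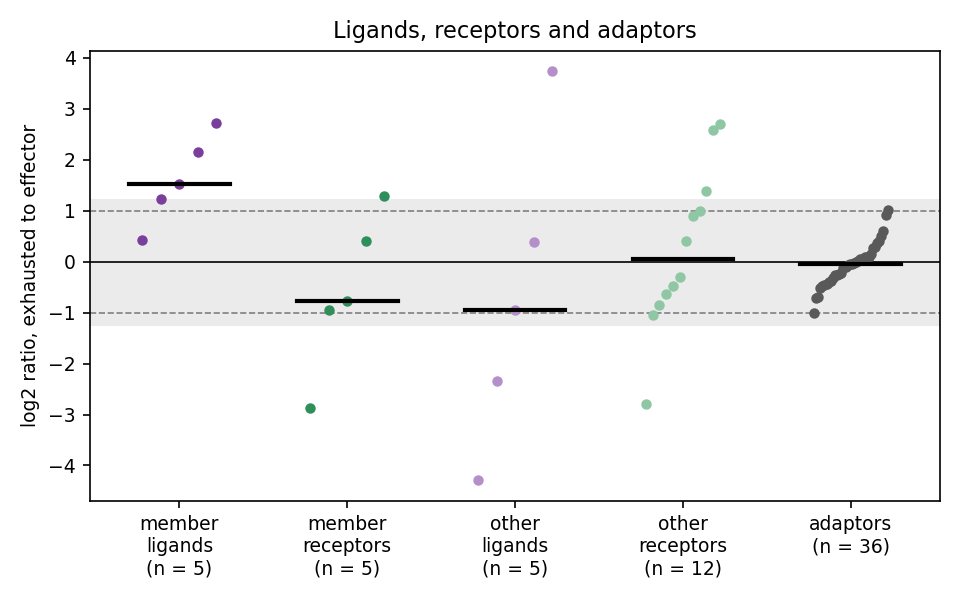
The log2 ratio of exhausted to effector for each measured gene (points) of the member ligands, member receptors, other ligands, other receptors and adaptors, with the median of each group as a black bar. The grey band holds the central 90 percent of all measured genes, from -1.25 to 1.2, and the 36 adaptor genes all lie inside it.

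The cell type on the label was read from its markers. Cd4 (9272 against 15463 reads), Cd3e, Cd3d and Cd3g were well covered in both libraries, and Cd8a had 0 reads in both. The segments of the TEa receptor were also abundant, with smaller counts in exhausted cells. Trbv19 had 16882 against 13968 reads (1.31-fold fewer) and Trav14d-3-dv8, which has near-identical copies, 31697 against 13494 (2.54-fold lower). Markers of other spleen cells were mostly under the read minimum. Of the B cell list, Ighm (674 RPKM in effector and 318 in exhausted cells) and Cd22 (603 against 4 reads) were measured, and both were lower. The myeloid and dendritic cell list held 49.9 and 47.5 CPM in the effector and exhausted library, mainly Cst3 (305 and 375 reads), with Clec9a and Siglech at 0 in both. The NK cell list held 12.0 and 28.1. Of it Klrb1c had 36 against 229 reads (5.88-fold higher) and Eomes, which T cells can also express, 53 against 10 (5.73-fold lower), with Klre1 and Klra8 at 0. For neutrophils and red cells the sums were 28.3 and 9.30, and for CD8 and gamma delta T cells 21.01 and 9.77, of which Cd8b1 gave 164 and 81 reads. Their part in the values of the members was not tested.

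**Figure D5:**
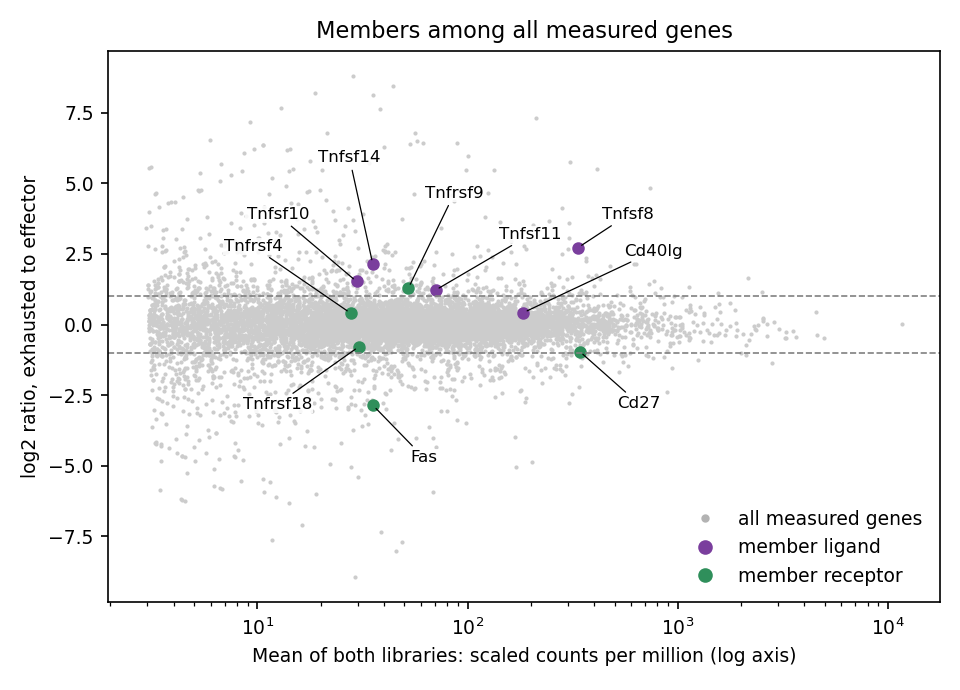
The 10 members (coloured points) among the 9999 measured genes (grey), by the mean of both libraries in CPM (horizontal log axis) and the log2 ratio of exhausted to effector (vertical axis), with dashed lines at 2-fold. Tnfsf8 at 2.73 ranks 129 from the highest and Fas at -2.86 ranks 123 from the lowest log2 ratio, and Cd27 lies at the lower line.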

How the data were processed

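TEa cells sorted from spleen gave 2 RNA libraries, 1 for each group. The labels' protocols name Trizol for RNA extraction and a Takara low-input kit for total RNA. The authors deposited a table of raw read counts per gene, as whole numbers, and per the file headers it also holds coordinates and gene lengths. STAR 2.6 and mm10 come from the submitters' processing notes. No source used here names the counting program, its strand setting or how it treated shared reads. Without molecular identifiers, amplified copies can be counted more than once, which would make the intervals too narrow.

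Scaling used the trimmed mean of M-values of edgeR 4.0.16 over genes with at least 50 reads, applied to the full totals (R 4.3.3). RPKM and CPM were computed here on these scaled library sizes. Ratios and shares carry exact 95% Clopper-Pearson intervals and levels exact Poisson intervals (scipy 1.17.1). The rule for calls, given with the first counts, sets a library with 0 reads to a floor of 3. It was also run on simulated counts that hold counting error only. Such counts cannot show how the calls fare against spread between animals or libraries. As alternatives, the scaling was taken from total counts, the upper quartile, DESeq2 1.42.0 or the Cd3 genes, and the read minimum, fold, prior count and depth were varied. The members and gene lists were chosen with earlier results of these data known. All members, all other family genes with 50 or more reads and the called adaptors were named by rule. Other adaptors, family genes under the minimum and some markers were named after their values were seen. Of the list entries, 1 was matched through its Ensembl ID and 2 had no match. Some genes of these lists are not reported here.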

Additional observations from a re-analysis of the deposited data

How the results depend on the processing

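Of the 10 members, Tnfsf8, Tnfsf14 and Fas kept their calls under all 11 alternatives. The 5 higher and 1 lower members were counted again with DESeq2 size factors, total counts, the upper quartile, a prior count of 2, at least 1 read, the thinned deeper library and an interval wholly beyond 2-fold. Scaling by the summed counts of Cd3e, Cd3d and Cd3g lowered the median log2 ratio of all measured genes to -0.45 and the share of calls that were higher from 48.5% to 19.6% (359 higher and 1469 lower, against 665 and 707). It left 3 members higher and 3 lower, since Tnfsf11 (log2 ratio 0.77) and Tnfrsf9 (0.85) dropped under 2-fold and Cd27 (-1.40) and Tnfrsf18 (-1.23) passed it. It gave 7 other family genes lower, and among the adaptors 0 higher and 3 lower. With at least 500 reads, 7 members were measured, of which 4 were higher and 1 lower. Of the 7 other family genes measured there, 0 were higher and 1 lower, against 244 and 264 of all 6143 genes measured. At 4-fold, 2 members were higher (Tnfsf8 and Tnfsf14), and 0 adaptors were called in either direction, as with an interval wholly beyond 2-fold (0 and 0). At 1.5-fold, 3 members were lower, with Cd27 and Tnfrsf18 added, and 3 adaptors were higher and 3 lower. With DESeq2 size factors 0 adaptors were lower. Over all 9999 measured genes the calls numbered 220 higher and 238 lower at 4-fold, 408 and 453 with the stricter interval, and 1371 and 1359 at 1.5-fold. With 1 read they numbered 1040 and 1102 of 17739 genes. No paired analysis was possible because each group holds 1 library. Depth limits the family genes with few reads, such as Tnfrsf8 and Tnfrsf12a.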

Other observations

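With a minimum of 1 read, 2 more family genes passed the 2-fold rule, both at low counts. Tnfrsf8, the CD30 gene, had 5 reads in the effector and 21 in the exhausted library (3.88-fold, 1.42 to 13.2), the same direction as its ligand gene Tnfsf8. Tnfsf4, the OX40 ligand gene, had 18 against 4 reads (4.87-fold lower, 1.60 to 19.8). Tnfsf12 and Tnfsf13, the genes of TWEAK and APRIL, were listed at 0 in both libraries, and their exons overlap on the same strand by 731 and 983 bases with the read-through gene Tnfsfm13, also at 0. How shared reads were counted is not known, so a listed 0 is not a measure of absence.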
